A study of Mus musculus with 6 samples.

Results

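Group 2 innate lymphoid cells (ILC2) of mouse skin were taken here as cells that met a rule on their own transcripts. A cell needed a unique molecular identifier (UMI, 1 captured transcript) of Ptprc, the pan-leukocyte marker CD45, of Il7r, the interleukin-7 receptor alpha chain, and of at least 1 of Gata3, Il5 and Il13. It was allowed none of the T cell genes Cd3e, Cd3d, Cd3g, Cd8a and Cd8b1, the macrophage receptor Csf1r or the Langerhans cell gene Cd207, and fewer than 20 UMIs of Krt5 plus Krt14 per 10000. The rule found 85 of 21178 cells, or 0.401%. The members were chosen by the measured UMIs of these genes, so the levels of the genes are descriptions and no finding.

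ILC2 are tissue-resident lymphocytes without antigen receptors. The transcription factor Gata3 maintains them, interleukin-7 and alarmins such as interleukin-33, interleukin-18 and thymic stromal lymphopoietin activate them, and their main products are the type 2 cytokines interleukin-13 and interleukin-5. In skin they lie in the dermis and near hair follicles, where T cells of several kinds can make the same cytokines.

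The cells came from 6 mice of the NINJA strain, 6 to 12 weeks old, with 2 mice in each of the groups NO_AG, AG and AG_CPI. In the series text these are mice with the antigen off, mice with it on, and mice with it on that also had CPI, an abbreviation the labels do not spell out. All groups shared the strain and the 4-OH-Tam applied to the sampled skin, and P14 CD8 T cells recovered from every mouse had been examined before sequencing. The labels give no sex, no Cre line or promoter for the antigen, and no dose or time of the treatments. The study's title concerns PD-1 and pathogenic CD8 T cells that infiltrate skin, and it does not name ILC2.

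The libraries held 1736 to 4972 cells with 5903724 to 24656382 UMIs, and 255 of 20921 distinct barcodes occurred in 2 or more of them. The mouse AG_CPI 1 stood apart: Xist, transcribed from the inactive X chromosome, had a UMI in 1.91% of its keratinocytes and in 66.4% to 88.2% of those of the other mice, and Ddx3y, a Y-linked gene, in 15.3% against 0. Of its 3 ILC2, none had a UMI of Xist and 1 had one of Ddx3y. The 85 cells had a median of 2431 UMIs each, with a range from 1582 to 14257.

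The NO_AG mice had 31 and 27 ILC2, the AG mice 14 and 8, and the AG_CPI mice 3 and 2. The rule passed through 9144 cells with Ptprc, 2976 that also had Il7r and 704 that also had Gata3, Il5 or Il13. The step that took out most of these was the absence of Cd3e, Cd3d and Cd3g, which left 111. At the keratin limit, the members closest to it held 15.4 and 14.3 UMIs per 10000, and 68 members held none. The 5 cells that failed by keratin alone held from 43.7 to 393.

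The label was checked against genes outside the rule. Thy1 and Id2, an ILC surface protein and the transcriptional repressor that all innate lymphoid cells need, had UMIs in 72 of the 85 cells each. Rora, a transcription factor required for ILC2 development, was found in 50 cells. The chemokine receptor gene Cxcr6 was found in 58, Ltb, which encodes lymphotoxin beta, in 64, Ramp1, a part of the CGRP receptor, in 52, the interleukin-18 receptor gene Il18r1 in 35 and the costimulatory gene Icos in 30. Crlf2, which encodes a chain of the receptor for thymic stromal lymphopoietin, had UMIs in 23 cells, and Il17rb, the interleukin-25 receptor, in 8.

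Several classical ILC2 genes were not found. No cell had a UMI of Il1rl1, the interleukin-33 receptor, Klrg1, an inhibitory receptor, or Ptgdr2, the prostaglandin D2 receptor. A count of 0 in 85 cells allows up to 3.53% of cells with a UMI. Among ILC2 products, Areg, an epidermal growth factor receptor ligand, was found in 14 cells, Tnf in 16, Il4 in 2, and Csf2 and Il9 in none. In all, 16 of the 22 listed surface and marker genes with a column in the files, and 12 of 22 listed products, had at least 1 UMI.

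Markers of other cell types were counted in the same cells. Of 15 T cell markers outside the rule, 12 were found, and 73 of the 85 cells had at least 1 of them. The signalling genes Lat and Lck were found in 43 and 35 cells and the transcription factor gene Tcf7 in 32. Of the T cell receptor constant genes, Trbc1 had UMIs in 15 cells, Trbc2 in 11 and Trac in 4, while Cd4 and Trdc were at 0. Without the cells that had a UMI of a receptor constant gene or Cd4, NO_AG kept 20 and 22 cells, AG kept 8 and 7, and AG_CPI kept 2 and 1. Of 6 B and plasma cell markers, 1 was found, in 1 cell. All 18 markers of natural killer cells and type 1 innate lymphoid cells were found, and 49 of the 85 cells had at least 1. Of 18 keratinocyte markers outside the rule 16 were found, in 66 cells, and of 19 myeloid markers 5, in 21 cells. Of 9 basophil and mast cell markers only Kit was found, in 13 cells. Of 17 listed markers of type 3 innate lymphoid cells and type 17 cells, 9 were found, and 82 of the 85 cells had at least 1 of them. They included Ltb in 64 cells, Tmem176b in 45, Tmem176a in 41 and Ccr6 in 33, while Il22, Il17a and Il23r were at 0.

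Because the T cell genes were required to be absent, shallow T cells can meet the rule. When every cell was thinned to 1500 UMIs before the rule was applied, 18, 17, 12, 6, 2 and 0 cells met it in NO_AG 1, NO_AG 2, AG 1, AG 2, AG_CPI 1 and AG_CPI 2. Of these, 2, 2, 4, 1, 0 and 0 had shown a Cd3 UMI before thinning. AG 1 was the mouse in which this exchange was most frequent.

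The free RNA of lysed cells can supply a UMI to a cell that does not express the gene. Keratinocytes express Gata3 themselves: 47.97% of the 8135 cells with Krt5 plus Krt14 at 20 or more and no Ptprc had a UMI of it. Cells with the macrophage receptor gene Csf1r should lack Gata3 and were therefore the check. Of 966 cells with Ptprc and Csf1r and without Cd3, at a median of 5404 UMIs, 2.59% had a Gata3 UMI. By mouse the share was 7.58% and 6.32% in NO_AG, then 1.71% and 1.59% in AG, then 0.614% and 0.694% in AG_CPI. It lay in the same order of groups as the ILC2 among cells with Ptprc, and its part in their numbers was not tested. No such cell had a UMI of Il13 or Il5, which allows a share of up to 0.311%. Of the keratinocytes, 24 (0.295%) had a UMI of Il13, and 15 of these (0.788% of that mouse's) lay in AG 2, where they held 10.7% of its Il13 UMIs.

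The 85 cells fell into 2 kinds by the genes that admitted them. Il13 had a UMI in 48 cells (56.5%), all 8 cells with Il5 were among these, and 37 cells (43.5%) met the rule through Gata3 alone. Gata3 itself was found in 60 cells, and 24 cells had Il13 without Gata3 or Il5. The median depth was 2164 UMIs in cells with Il13 and 2997 in those with Gata3 alone. Il13 and Il5 lie on mouse chromosome 11 of GRCm38, at chr11:53631324-53634702 on the minus strand and chr11:53720794-53725106 on the plus strand. They are 86.1 kb apart with Rad50 between them. Gata3 lies at chr2:9857078-9890034 on the minus strand.

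The NO_AG mice had 19 and 15 members with Il13, the AG mice 9 and 5, and the AG_CPI mice none. The Gata3-only members numbered 12 and 12, 5 and 3, and 3 and 2 in the same order. All 5 ILC2 of the AG_CPI mice therefore belonged to the Gata3-only kind, which the heat map of single cells shows. Averaged over the ILC2 of a mouse, Il13 stood at 6.00 and 5.81 UMIs per 10000 in NO_AG, and at 6.52 and 6.59 in AG. In AG_CPI it was at 0. Since Il13 admits a cell to the set, these means are in part fixed by the rule. In AG 1, 1 cell held 50% of the Il13 UMIs.

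**Figure D1:**
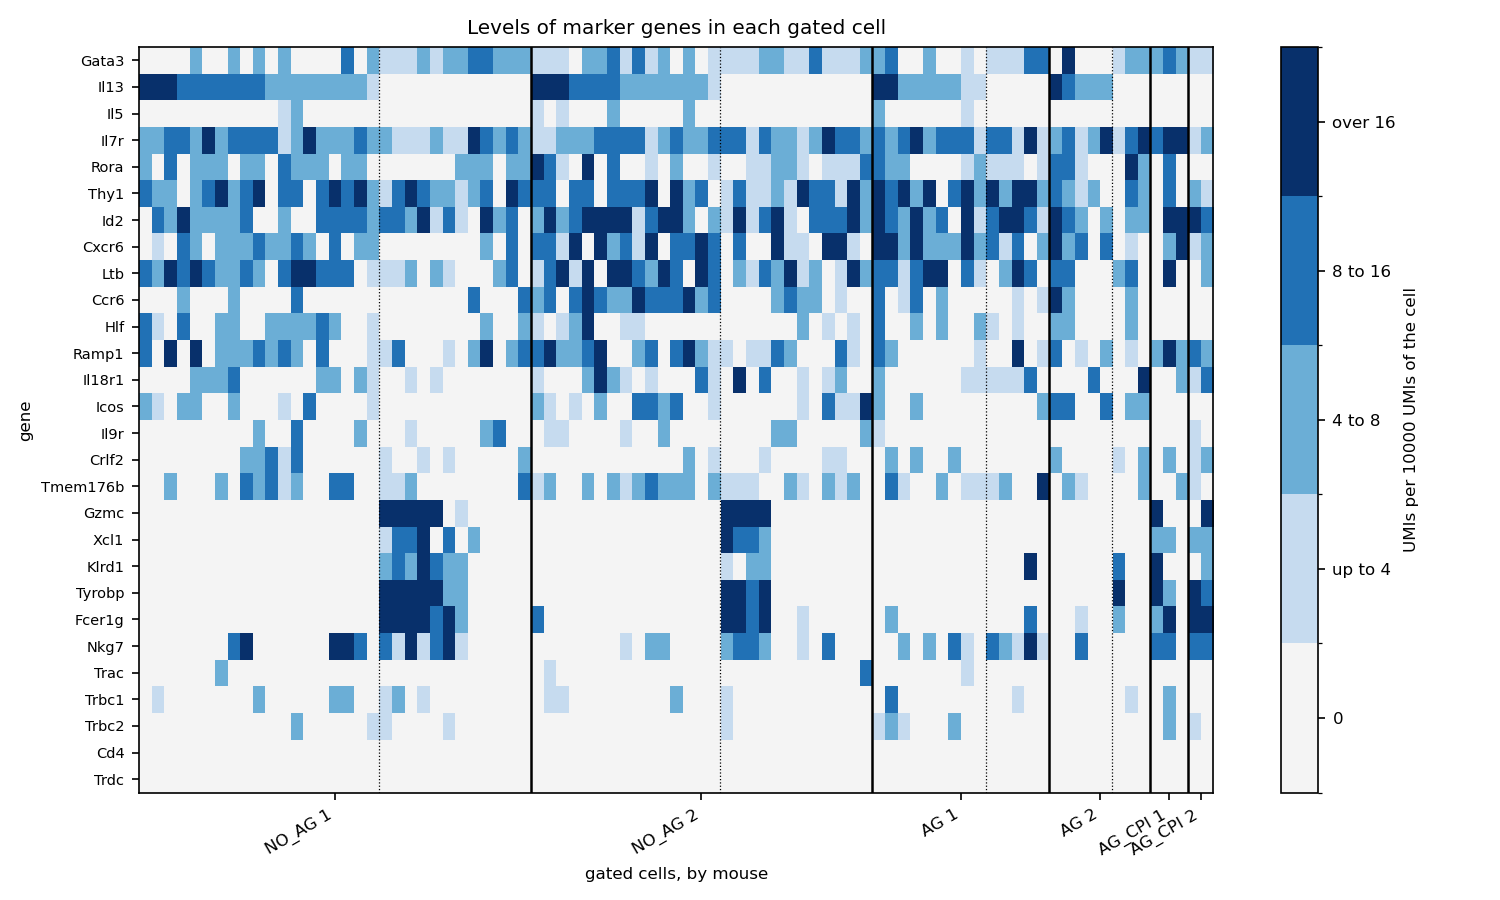
Level of 28 genes (rows) in each of the 85 ILC2 (columns), in UMIs per 10000 UMIs of the cell, in 5 shades. Solid lines separate the mice and dotted lines separate members with Il13 or Il5, on the left, from members with Gata3 alone. Gzmc, Xcl1, Klrd1 and Tyrobp are at 0 in all 48 cells with Il13 and present together in a block of Gata3-only cells.

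The Gata3-only members were themselves mixed. Of the 37, 18 had a UMI of at least 1 of Gzmc, Xcl1, Klrd1, Tyrobp and Tbx21, and 16 had at least 2 of them. Gzmc encodes a granzyme, Xcl1 a chemokine and Klrd1 a receptor chain of natural killer cells, Tyrobp a signalling adaptor of natural killer and myeloid cells, and Tbx21 the transcription factor T-bet. Of the 48 cells with Il13, none had a UMI of any of the 5, which allows up to 6.25% of cells. These 5 genes were picked after their values were seen, so the split is a description. The 18 listed markers of natural killer cells and type 1 innate lymphoid cells split the members less sharply. At least 1 of them was found in 19 of the 48 cells and in 30 of the 37.

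Each of the 5 genes and Fcer1g showed the same contrast, while Nkg7 had UMIs in cells of both kinds. Tyrobp was found in 16 of the 37 Gata3-only cells, Xcl1 and Klrd1 in 14 each, Gzmc in 12 and Tbx21 in 6. Fcer1g, the Fc receptor gamma chain, was found in 18 of the 37 and in 3 of the 48. For the 16 cells with at least 2 of the 5 genes, these genes go against the label of ILC2. Of the other 2, 1 had a single UMI of Xcl1, beside Rora and Thy1, and 1, in AG 1, had Klrd1 alone of the 5 at 24.3 UMIs per 10000, with Nkg7 at 44.5, Fcer1g at 12.1 and no Rora. Among the 16, the AG 2 cell of 12173 UMIs also had 198 UMIs of H2-Aa and 474 of Cd74, genes of antigen-presenting cells. The AG_CPI 1 cell of 1622 UMIs had 1 UMI each of Xcl1 and Tyrobp beside 2 each of Rora and Thy1. Rora was found in 25% of the 16, against 60.4% of the cells with Il13. Ramp1 (62.5% against 62.5%) and Il18r1 (37.5% against 41.7%) did not separate them. NO_AG held 8 and 4 of the 18, AG 1 and 1, and AG_CPI 2 and 2, so 4 of the 5 AG_CPI cells were of this kind.

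For other genes the counts ran the other way, although the cells with Il13 were shallower, and no test was made. Cxcr6 had UMIs in 40 of the 48 and in 18 of the 37. Hlf, a transcription factor of the PAR bZIP family, had UMIs in 24 and 8, Icos in 22 and 8, and Ccr6, a chemokine receptor, in 23 and 10. Furin, a proprotein convertase, was found in 32 and 14. In the 18 cells with Gzmc, Xcl1, Klrd1, Tyrobp or Tbx21, Hlf and Icos were at 0, Ccr6 was found in 1 and Cxcr6 in 4. In the other 19 Gata3-only cells Hlf and Icos were found in 8 each (42.1%, against 24 and 22 of the 48 cells with Il13), Ccr6 in 9 (47.4% against 47.9%) and Cxcr6 in 14 (73.7% against 83.3%). Rora was found in 5 of the 18, 16 of the 19 and 29 of the 48. Ramp1 was found in 11, 11 and 30 of these, and Il18r1 in 7, 8 and 20. The chart of marker genes pools the 37 Gata3-only cells.

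**Figure D2:**
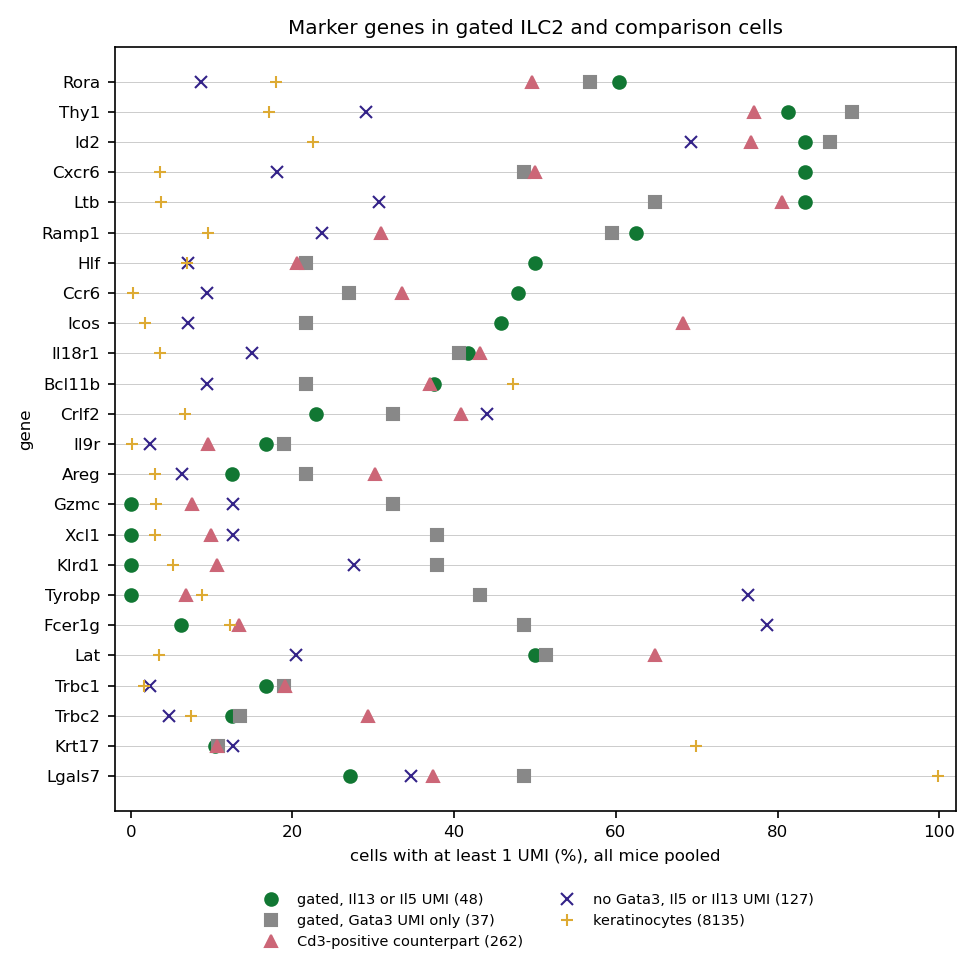
Share of cells with at least 1 UMI of 24 genes (x axis, percent), all mice pooled, for ILC2 with Il13 or Il5, ILC2 with Gata3 alone, the Cd3-positive counterpart, cells of the same rule without Gata3, Il5 and Il13, and keratinocytes; numbers of cells are in the legend. Tyrobp stands at 0 in ILC2 with Il13, 43.2% in ILC2 with Gata3 alone and 76.4% in cells without the 3 type 2 genes.

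ILC2 were set beside 2 neighbouring sets of cells. The Cd3-positive counterpart, which met the same rule except for at least 1 UMI of Cd3e, Cd3d or Cd3g, held 262 cells. It resembled ILC2 in Rora (49.6% of cells against 58.8%) and Thy1, and Cxcr6 was found in 131 of 262 cells against 58 of 85. The shares lay further apart for Icos (68.3% against 35.3%) and Ramp1 (30.9% against 61.2%). The 127 cells that met the rule except for having none of Gata3, Il5 and Il13 had Tyrobp in 76.4% and Fcer1g in 78.7%. Rora was found in 8.66% of these. Since the rule defines the sets, no test was made between them. The sets also pool the mice in unlike parts. Of the 262 cells 98 came from AG 1, and of the 127 cells 65 came from AG 2. Of the 85 ILC2, 31 and 27 came from the NO_AG mice. Differences between the sets are thus mixed with differences between the groups.

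Most Il13 in the skin lay outside ILC2. Il13 had a UMI in 610 cells of the series, of which 48 were ILC2, 478 had a Cd3 UMI and 205 had a UMI of Trdc, the constant gene of the T cell receptor delta chain. By mouse, NO_AG had 174 and 179 cells with Il13, AG had 159 and 69, and AG_CPI had 9 and 20. ILC2 held 8.72% and 11.9% of the Il13 UMIs in NO_AG, 4.49% and 7.10% in AG, with none in AG_CPI. The NO_AG mice both lay above the AG mice. A further 30 cells with Il13 had Ptprc and no UMI of Cd3, Cd8 or Il7r, and so missed the rule at least at Il7r. Their part of the Il13 UMIs was 11.8% and 7.19% in the NO_AG mice, 1.38% and 8.28% in the AG mice, 0 in AG_CPI 1 and 11.8% in AG_CPI 2, the last from 8 UMIs in 1 cell, and the groups overlapped. Il5 had a UMI in 51 cells, 8 of them ILC2.

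**Figure D3:**
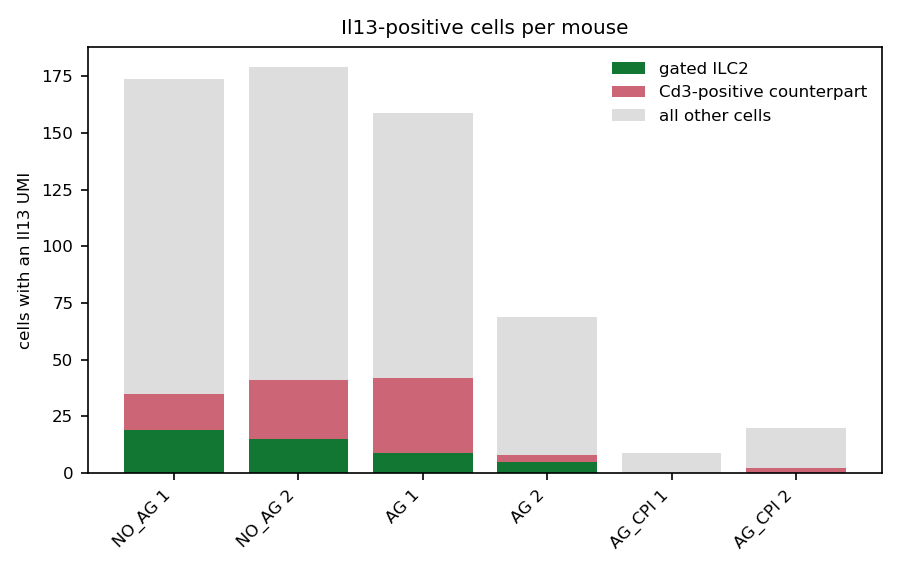
Number of cells with an Il13 UMI in each mouse (y axis), stacked by ILC2, the Cd3-positive counterpart and all other cells. ILC2 contributed 19, 15, 9, 5, 0 and 0 cells from left to right.

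Among cells with Ptprc, ILC2 made up 2.27% (Wilson 95% interval 1.60% to 3.20%) and 2.08% (1.44% to 3.02%) in NO_AG. They made up 0.838% (0.4997% to 1.40%) and 0.392% (0.199% to 0.772%) in AG, and 0.233% (0.0792% to 0.682%) and 0.135% (0.0370% to 0.491%) in AG_CPI. These intervals cover counting error alone. No mouse of one group overlapped another group. The group means were 2.18% ± 0.128, 0.615% ± 0.315 and 0.184% ± 0.0691 (SD, n = 2 mice each). Without the 18 members that had Gzmc, Xcl1, Klrd1, Tyrobp or Tbx21 the NO_AG mice stood at 1.68% and 1.78%, the AG mice at 0.778% and 0.343%, and the AG_CPI mice at 0.0776% and 0. With cells thinned to 1500 UMIs the same mice stood at 1.79% and 1.80%, 1.06% and 0.422%, and 0.203% and 0. The exact permutation test, two-sided, gave p = 0.333 for each pair of groups, the smallest p that 2 against 2 mice allow, and 0.576 after adjustment over 57 comparisons of shares.

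The order depended on the denominator. ILC2 here are all cells that met the rule. In the AG_CPI mice 2 of 3 and 2 of 2 of them had Gzmc, Xcl1, Klrd1, Tyrobp or Tbx21. Of all cells, ILC2 made up 0.623% and 0.659% in NO_AG, 0.400% and 0.172% in AG, with 0.173% and 0.0906% in AG_CPI. Here AG 2 lay just below AG_CPI 1, so AG and AG_CPI overlapped. Of cells with Ptprc and without Cd8a and Cd8b1, the values were 2.49% and 2.96%, 1.72% and 0.706%, and 1.08% and 0.545%, and AG and AG_CPI overlapped again. Per 100 keratinocytes, ILC2 numbered 1.19 and 1.29, 1.36 and 0.420, and 1.91 and 0.610. All groups overlapped on that scale, with exact permutation p-values of 0.667 to 1. Members with Il13 or Il5 numbered 0.727 and 0.714, 0.872 and 0.263, and 0 and 0 per 100 keratinocytes (exact permutation p = 0.333 for AG_CPI against each other group). The AG_CPI mice had 157 and 328 keratinocytes, so few that the limit a count of 0 allows lies above every other mouse.

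The rest of the libraries moved with these shares. Of all cells, 27.5% and 31.6% had Ptprc in the NO_AG mice, 47.7% and 43.7% in the AG mice, and 74.3% and 67.1% in the AG_CPI mice. Cells with Cd8a or Cd8b1 were 8.92% and 29.6%, 51.3% and 44.4%, and 78.4% and 75.2% of those with Ptprc. A fall in the number of ILC2 in the skin and a rise in the number of other leukocytes cannot be told apart from shares.

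The Il13-positive kind, a part of the same ILC2 that is set apart by a gene of the rule, lay in the same order. It made up 1.39% and 1.16% of cells with Ptprc in NO_AG, 0.539% and 0.245% in AG, with 0 of 1289 and 0 of 1482 in AG_CPI, which allows shares of up to 0.233% and 0.202%. Both limits lie below both AG mice, that of AG_CPI 1 only just below AG 2. With 2 against 2 mice the exact permutation test allows no p below 0.333, so no difference between AG and AG_CPI was established. Per 100 cells of the Cd3-positive counterpart, all ILC2 numbered 91.2 and 51.9 in NO_AG, 14.3 and 23.5 in AG, with 37.5 and 5.56 in AG_CPI. The NO_AG mice lay above both other groups, while AG lay within the range of AG_CPI.

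**Figure D4:**
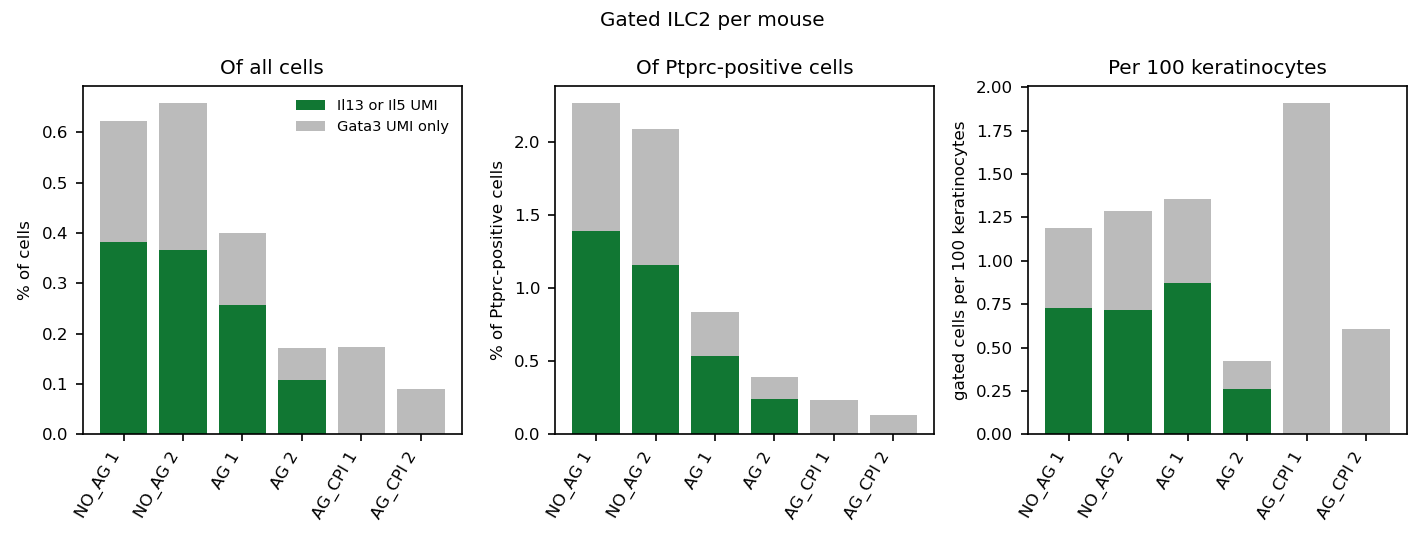
ILC2 of each mouse as a share of all cells, as a share of cells with Ptprc, and per 100 keratinocytes, with bars from 0 stacked by members with Il13 or Il5 and members with Gata3 alone. The NO_AG mice lie above the others in the first and second panels, and the groups overlap in the third.

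Gene levels within ILC2 were compared between AG and NO_AG. The planned minimum of 10 cells per mouse would have left 1 AG mouse, for which the plan was to give values with no test, so a minimum of 5 was set after the numbers of cells were seen. The fit without AG 2 holds the 3 mice that met the planned minimum. The 3 and 2 cells of the AG_CPI mice are given as values with no test. Of 3441 genes tested with limma, 1 was called at a Benjamini-Hochberg adjusted p of 0.05, which is 0.0291% of genes, and it was lower in AG. No gene was called higher (0.0%). Leaving out 1 mouse moved the number of genes called from 1 to 2 without NO_AG 1, 3 without NO_AG 2, 675 without AG 1 and 60 without AG 2, in fits with 1 residual degree of freedom. At an unadjusted p under 0.05, 39 genes were higher (1.13%) and 159 lower (4.62%). The median log2 change over all genes was -0.22. The AG mice contributed 37394 and 27488 UMIs, against 95082 and 89212 in NO_AG.

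Gzmc was the gene called. It stood at 25.6 and 39.0 UMIs per 10000 in NO_AG and at 0 and 0 in AG, with 9.07 and 10.4 in AG_CPI. Its UMIs lay in 6 and 4 cells of the NO_AG mice, none of which had Il13, and 57.1% of those in NO_AG 2 lay in 1 cell. That cell, of 14257 UMIs, also held 107 UMIs of Krt17 and 277 of Lgals7, both keratinocyte genes. Of the 58 NO_AG cells 10 had a UMI of it, against 0 of the 22 AG cells, which allows up to 13.6% of cells. The adjusted p was 0.00339 (limma). Gzmc passed the filter on low values only through the NO_AG mice, and with AG at 0 the fitted log2 difference is set by the pseudocount and is no measure of size: it was -8.33 with 0.1, -6.02 with 0.5 and -10.6 with 0.02. The cells with Gzmc, Xcl1, Klrd1, Tyrobp or Tbx21 numbered 8 of 31 and 4 of 27 in the NO_AG mice and 1 of 14 and 1 of 8 in the AG mice. Without the members that had Gzmc, Xcl1, Klrd1, Tyrobp or Tbx21, an alternative that takes Gzmc itself out, no gene was called. Without either NO_AG mouse Gzmc fell below the filter on low values and was not tested. With no such filter the adjusted p was 0.109, with every cell thinned to 1500 UMIs it was 0.526, and without cells that had T cell receptor constant genes or Cd4 it was 0.0568. In the Cd3-positive counterpart Gzmc stood at 16.5 and 0.178 in NO_AG and at 0.0820 and 25.7 in AG, so the groups overlapped there.

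The next genes by p did not pass the test (adjusted p = 0.596 for each). Lower in both AG mice were Xcl1 (1.84 and 1.79 against 0 and 0) and Klrb1f, a gene of the killer lectin-like receptor family (1.06 and 1.51 against 0 and 0). Both, like Gzmc, passed the filter on low values only through the NO_AG mice. In the AG_CPI mice Xcl1 stood at 3.87 and 6.13, from 2 and 4 UMIs. Klrb1f stood there at 2.06 and 5.93, from 1 and 4 UMIs in 1 cell each. These values lie above both NO_AG mice but rest on 3 and 2 cells, and no test was made. The keratinocyte genes Krt17 (6.51 and 3.101 against 0.833 and 0.747) and Lgals7 (10.4 and 9.25 against 0.977 and 3.17) also lay lower. In NO_AG 1, 1 cell of 1842 UMIs held 94.6% of the Krt17 UMIs, and in NO_AG 2, 1 cell of 14257 UMIs held 98.2% of the Krt17 and 94.9% of the Lgals7 UMIs. Without the highest cell of each mouse, Krt17 stood at 0.392 and 0.334 in NO_AG against 0.374 and 0 in AG, and Lgals7 at 6.11 and 2.13 against 0.529 and 2.38. The groups then overlapped for both genes. With the members over 10000 UMIs left out, a choice made after seeing the data, the log2 differences went from -2.41 to -0.99 for Krt17 and from -2.44 to -0.72 for Lgals7. Of 12 keratinocyte markers tested, 9 lay lower in both AG mice, beside 22.0% of all genes, and none was called. The summed level of all 18 listed keratinocyte markers in ILC2 was 47.1 and 26.2 in NO_AG, 6.00 and 10.7 in AG, with 5.60 and 1.58 in AG_CPI.

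Higher in both AG mice without passing were H2-Eb1 and H2-Aa, chains of MHC class II. H2-Eb1 stood at 0.192 and 0.490 in NO_AG against 4.62 and 18.8 in AG, and H2-Aa at 0.594 and 0.790 against 4.43 and 22.97. In the few AG_CPI cells H2-Eb1 stood at 2.98 and 0, and H2-Aa was at 0 in both mice. In AG 2, 1 cell of 12173 UMIs held 198 of the 203 H2-Aa UMIs, with 474 of Cd74 and 29 of Tyrobp. Without that cell H2-Aa stood at 3.02 there, still above both NO_AG mice. With the members over 10000 UMIs left out, the log2 difference of H2-Aa went from 3.66 to 2.09 and that of H2-Eb1 from 4.47 to 2.70. In keratinocytes, H2-Aa was at 0.897 and 1.16 in NO_AG and at 1.05 and 5.08 in AG. H2-Eb1 was there at 0.729 and 0.860 in NO_AG and at 1.51 and 3.97 in AG, higher in both AG mice. Lgals3bp (0.324 and 0.598 against 2.80 and 2.79) and Ctss, the protease cathepsin S (1.78 and 2.34 against 4.98 and 5.55), completed the named genes beside H2-D1.

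**Figure D5:**
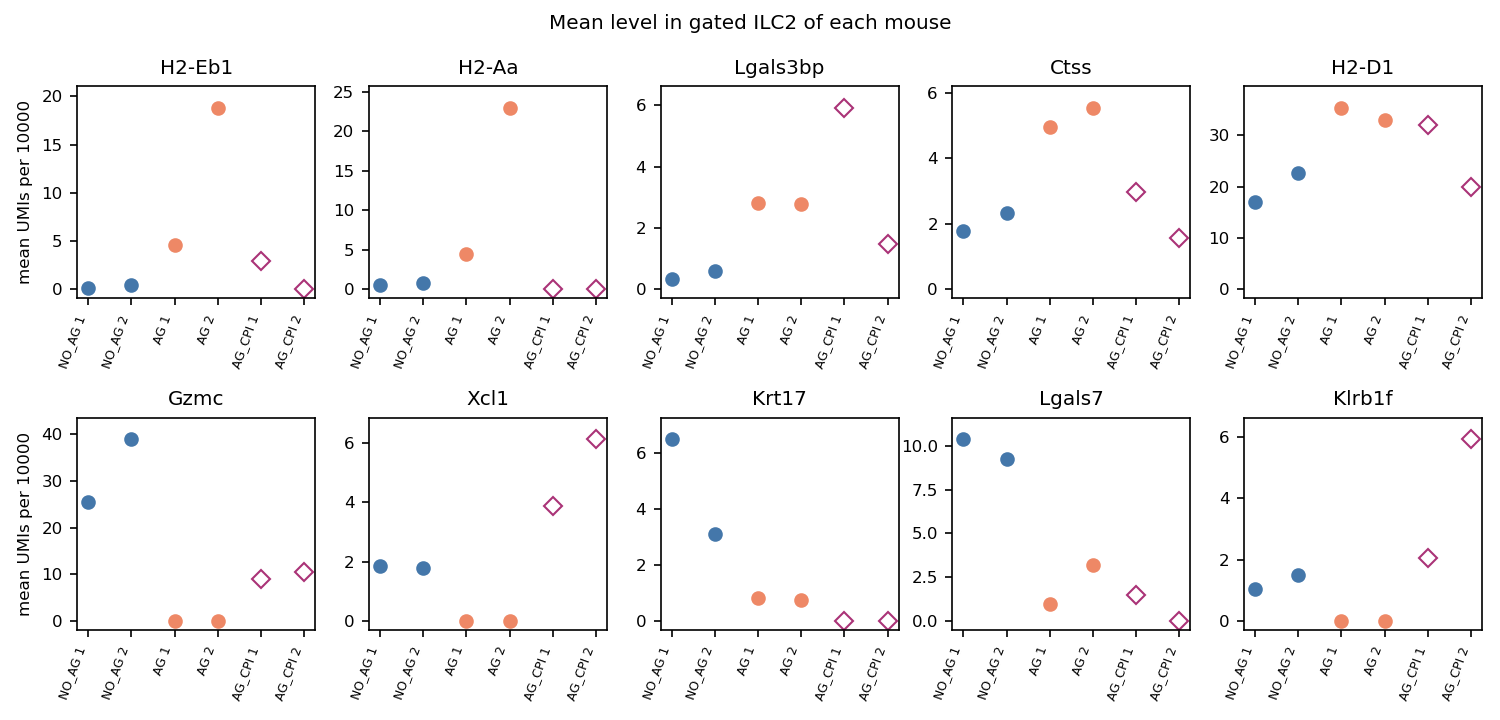
Mean level in the ILC2 of each mouse (y axis, UMIs per 10000) of the 5 genes with the smallest p in each direction in AG against NO_AG. Filled circles are the tested mice and open diamonds the AG_CPI mice with 3 and 2 cells. The groups NO_AG and AG do not overlap, which the choice of genes required, and only Gzmc passed the adjusted test, with AG at 0 and its NO_AG UMIs all in Gata3-only cells.

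H2-D1, a classical MHC class I heavy chain, stood at 17.1 and 22.7 in NO_AG, 35.4 and 33.1 in AG, with 32.1 and 19.98 in AG_CPI. The log2 difference between AG and NO_AG was 0.75 (SE 0.191, adjusted p = 0.596, limma). In the Cd3-positive counterpart the same gene rose by 0.83 (SE 0.154, adjusted p = 0.0228, limma). H2-K1 lay at 25.7 and 27.9 against 44.9 and 39.6, and B2m, the shared light chain, at 18.9 and 23.7 against 31.3 and 34.5, with adjusted p-values of 0.596 and 0.665 (limma). Reads of H2-D1 and H2-K1 can be shared with close relatives.

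Of the 17 interferon-gamma response genes tested, 7 lay higher in both AG mice, among them B2m, H2-D1, H2-K1 and Tap1, and Gbp4 lay lower in both, beside 14.4% and 22.0% of all genes. None passed the test. Their median log2 change was 0.46, and the median of all genes was -0.22. Ifngr1, the interferon-gamma receptor chain, stood at 1.58 and 3.1002 against 3.76 and 8.43 (adjusted p = 0.819, limma). Of 7 type I interferon-stimulated genes tested, Bst2 and Zbp1 lay higher in both AG mice, with a list median of 1.33.

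The genes that mark ILC2 showed no called change. Rora stood at 3.34 and 4.34 in NO_AG and 2.996 and 5.67 in AG, with a log2 difference of 0.07 (SE 0.385). Id2, Thy1, Cxcr6, Hlf, Ccr6 and Il18r1 overlapped between the groups as well. Of the 11 surface and marker genes tested, Il2ra, the high-affinity chain of the interleukin-2 receptor, lay higher in both AG mice, and Areg and Il9r lay lower in both, shares near those of all genes (14.4% and 22.0%). Il9r, the interleukin-9 receptor, stood at 1.21 and 1.26 against 0.213 and 0 (adjusted p = 0.683, limma). At 0.267 and 0.364 per 10000 for 1 UMI in the AG mice, such levels rest on single UMIs.

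Among 25 transcription factors tested, 9 lay higher and 3 lower in both AG mice, beside 14.4% and 22.0% of all genes, and none was called. Ets1, which is needed for ILC2 development, stood at 4.06 and 3.71 in NO_AG and 1.87 and 1.92 in AG (adjusted p = 0.665, limma). Ikzf2, which encodes Helios, stood at 0.461 and 0.346 against 0.909 and 2.46. Rel stood at 1.24 and 1.28 against 0.287 and 0.103. Ramp1 was among the receptors that lay lower in both AG mice, at 6.61 and 7.17 against 3.01 and 3.13, with 9.47 and 9.30 in the AG_CPI cells (log2 difference of AG and NO_AG -1.18, SE 0.262, adjusted p = 0.596, limma).

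The change from NO_AG to AG was then compared with that in the Cd3-positive counterpart, mouse by mouse. None of 3405 genes differed in change at an adjusted p of 0.05 (limma, 0.0%), and 189 did at an unadjusted p under 0.05. The smallest adjusted p was 0.789, so this test singled out no gene. In the counterpart alone, which had 34 to 98 cells per mouse, 25 of 6456 genes were called (0.387%), of which 24 rose (0.372%) and 1 fell (0.0155%).

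Keratinocytes, a source of ILC2-activating cytokines, held Il33 at 0.413 and 0.383 UMIs per 10000 in NO_AG, 0.104 and 0.297 in AG, with 0.307 and 0.131 in AG_CPI. Both NO_AG mice lay above the others. Tslp, which encodes thymic stromal lymphopoietin, stood at 0.0129 and 0.0144, 0.0194 and 0.362, and 0 and 0.0275, so AG 2 alone was high. Il18 stood at 0.0560 and 0.0181, 0.0226 and 0.0773, and 0.0413 and 0.0158, and the groups overlapped. No test was made of these levels.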

How the data were processed

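Single-cell libraries from the skin of 6 mice came from a 5' kit of 10x Genomics, per the labels' protocols, and were processed by the authors with Cell Ranger 3.1 against mm10, per the submitters' processing notes. Each deposited value is on a log10 scale: a gene's UMIs per 10000 of its cell's UMIs, with 1 added before the log. This unit was read from the values: after inversion, 100% of them fell within 0.05 of a whole UMI when read as log10. Read as natural logs, 66.9% to 69.8% did. The files hold 16158 genes.

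ILC2 were selected by the stated rule. The members and the gene lists were chosen with earlier results of these data known. Linear levels were averaged over a mouse's cells, adjusted by TMM factors (trimmed mean of M-values), converted to log2 after adding 0.1, and compared with limma 3.58.1 (trend, group as the only term) in R 4.3.3. Genes needed 10 UMIs and a level of 0.1 in 2 mice, and the 14 genes of the rule were left out. The planned minimum of 10 cells per mouse left 1 AG mouse, and the plan gave no test with fewer than 2 mice in a group. A minimum of 5, chosen after the cell numbers were seen, admitted the 4 NO_AG and AG mice and left 2 residual degrees of freedom. The difference to the counterpart was tested on each mouse's log2 ratio of the 2 cell sets. Fold changes on the log2(level + 0.1) scale understate changes of low genes. Shares were compared by exact permutation. Named genes are those called, or, where fewer than 5 were called in a direction, the 5 with the smallest p whose groups did not overlap, leaving out receptor segments, sex-linked, mitochondrial, ribosomal protein and unnamed genes. Genes of the lists were named whatever their p. Doublets were scored with Scrublet in scanpy 1.11.5, and 1 of the 85 cells was marked and kept. No cell filter was applied. The fit was also run on simulated counts with a fixed spread between mice, and no result of that run is used here. The simulation did not model single cells that hold most UMIs of a gene. Coordinates are those of GENCODE for GRCm38. Whether the mice of a group were separate litters or batches is not given in the sources used here.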

Additional observations from a re-analysis of the deposited data

How the results depend on the processing

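The gene comparison of AG and NO_AG rests on 4 mice with 8 to 31 cells each, and its 1 call was sensitive. No gene was called with no filter on low values, without cells having T cell receptor constant genes or Cd4, with thinning to 1500 UMIs, without members having Gzmc, Xcl1, Klrd1, Tyrobp or Tbx21, or with members having Il13 or Il5 alone (0 each). The fit on sums of UMIs called 3. Leaving out 1 mouse gave between 2 and 675 calls: 2 without NO_AG 1, 3 without NO_AG 2, 675 without AG 1 and 60 without AG 2. A lone mouse is there assumed to vary like the other group, with 1 residual degree of freedom. The cause of these differences was not tested. The replicate block called 4 genes with 1 residual degree of freedom. Deviations of same-numbered mice correlated at -0.03 over genes. This is 1 correlation of levels that rest on few UMIs, so it cannot tell whether same-numbered mice shared a batch. Of 184 recomputed folds of the 10 named genes, 157 kept their side of the threshold, 24 passed it newly, 3 (all Gzmc) lost it, and 0 reversed. The genes were chosen for groups that did not overlap, which left little room for a reversal. Settings in which a gene fell below the filter are not among the 184. The difference to the counterpart called 0 genes in each of the 7 alternatives run, at 189 genes with unadjusted p under 0.05 in the reported fit.

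All 78 recomputed differences of shares of all cells and of cells with Ptprc kept their direction. AG_CPI minus AG was -0.403 percentage points of cells with Ptprc and no Cd8, but 0.372 per 100 keratinocytes and 2.62 per 100 counterpart cells, where members with Il13 or Il5 gave -0.567 and -11.9. AG_CPI minus NO_AG was 0.0246 per 100 keratinocytes. Among cells with Ptprc, AG minus NO_AG ranged from -1.78 to -0.882 percentage points, AG_CPI minus NO_AG from -2.13 to -1.27 and AG_CPI minus AG from -0.654 to -0.184. Among all cells the ranges were, in that order, -0.470 to -0.153, -0.551 to -0.331 and -0.268 to -0.0396. Requiring a Gata3 UMI left 4 cells in AG 2, so that gate gave no gene test. A fit of AG and NO_AG alone equals the one reported. The minimum of 5 cells, the 2 gates by Gzmc and its companions and by Il13 or Il5, the removal of cells over 10000 UMIs, the fit with all 6 mice and the fit of the counterpart alone were chosen after seeing the data. Removing cells over 10000 UMIs and fitting all 6 mice called 1 gene each.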
